A study of Mus musculus with 8 samples.

Results

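The genes described here are 41 that carry cells through the division cycle and copy their DNA, among 54446 genes in the count table, of which 15613 had enough reads to test. They were chosen by name as textbook cell cycle and replication genes, with earlier results of these data known, and all 41 passed the filter on low counts. The list holds 9 regulators of G1 (cyclins D1 and D3, Cdk4, Cdk6, the inhibitor Cdkn1b, E2f1, E2f2, Myc and Cdc25a), 4 genes of the cyclin E, cyclin A and Cdk2 step, 11 genes that license origins or run the fork, 4 genes of nucleotide synthesis and 13 genes of mitosis.

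The cells were Hepa1-6, a mouse hepatoma line, so every library comes from a single cancer cell line grown in medium with 10% fetal bovine serum. Sequencing of polyadenylated RNA covered 4 groups of 2 libraries. The first group was exposed to both trimethylamine N-oxide (TMAO, which the liver makes by oxidising trimethylamine from gut microbes) at 50 µM and TNF-α, an inflammatory cytokine, at 50 ng/ml, the second to TNF-α alone at 50 ng/ml, the third to TMAO at 50 µM, each for 24 h, and the fourth was an untreated control. For the combined group the treatment field names TMAO as both agents, whereas its titles, like the protocol, pair TMAO with TNF-α. The libraries are called by the numbers 14 and 16 in their titles, whose meaning the labels do not give. No label says that the libraries of a group came from separate cultures, so each p-value reflects the spread of libraries that may be no more than technical repeats.

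A dividing cell passes a commitment point in G1 when D-type cyclins with Cdk4 or Cdk6 phosphorylate the retinoblastoma protein and free E2F factors, which switch on the genes of DNA replication. Cdc6 and Cdt1 load the Mcm2 to Mcm7 helicase onto origins, cyclin E and cyclin A with Cdk2 fire them, and cyclin B with Cdk1 then drives mitosis, where Aurora and Polo-like kinases build the spindle and the Bub and Mad proteins hold anaphase back until chromosomes are attached. Adult hepatocytes are mostly quiescent and re-enter the cycle after liver loss, a response primed by TNF-α, while hepatoma lines divide continuously. Fewer cycling cells and less RNA of these genes per cell cannot be told apart in bulk libraries.

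The promoters of Mcm6, Cdk1, Mki67 and Cdk4 are shown because they hold the binding words by which the replication, mitotic and Myc-target branches of the list are usually recognised. RefSeq promoters of assembly GRCm38.p6, from 250 bases before to 50 after the start, were found for 34 of the 41 genes, and not for Ccna2, Ccne2, Gmnn, Aurkb, Mcm4, Myc and Ccnd1. Each line below is the 250 bases before the start, read 5′ to 3′ on the gene's own strand, with matches in capitals. Mcm6, a helicase subunit, lies on the minus strand and its stretch is chr1:128359706-128359955, in which the capitals mark E2F words (TTTGGCGC, TTTCCCGC, TTTCGCGC or TTTGCCGC) and CCAAT boxes (CCAAT), both read on either strand. Cdk1, the mitotic kinase, also lies on the minus strand at chr10:69352913-69353162, and its capitals mark an E2F word, CCAAT boxes and the cell cycle homology region (CHR, TTTGAA or TTCGAA), the word bound by the DREAM and MuvB complexes. Mki67, the Ki-67 proliferation marker, lies on the minus strand at chr7:135716380-135716629, with CHR words and CCAAT boxes in capitals. Cdk4, the G1 kinase, lies on the plus strand at chr10:127063285-127063534, with E-boxes (CACGTG, the word bound by Myc with Max) in capitals.
Mcm6: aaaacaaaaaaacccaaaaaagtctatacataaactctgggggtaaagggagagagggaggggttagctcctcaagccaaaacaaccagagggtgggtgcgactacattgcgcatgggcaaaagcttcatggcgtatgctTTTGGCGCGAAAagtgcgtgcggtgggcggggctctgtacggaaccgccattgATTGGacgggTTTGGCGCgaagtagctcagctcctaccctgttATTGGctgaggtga
Cdk1: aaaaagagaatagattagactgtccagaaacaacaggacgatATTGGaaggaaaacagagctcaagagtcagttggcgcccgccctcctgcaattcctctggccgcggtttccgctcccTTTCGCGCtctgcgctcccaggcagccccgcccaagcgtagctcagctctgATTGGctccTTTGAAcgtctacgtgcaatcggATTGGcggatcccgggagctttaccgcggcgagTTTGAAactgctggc
Mki67: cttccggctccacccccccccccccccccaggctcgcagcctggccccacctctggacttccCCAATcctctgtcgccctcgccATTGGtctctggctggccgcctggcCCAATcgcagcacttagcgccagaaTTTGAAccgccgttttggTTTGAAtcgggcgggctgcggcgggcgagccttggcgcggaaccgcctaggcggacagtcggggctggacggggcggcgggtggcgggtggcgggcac
Cdk4: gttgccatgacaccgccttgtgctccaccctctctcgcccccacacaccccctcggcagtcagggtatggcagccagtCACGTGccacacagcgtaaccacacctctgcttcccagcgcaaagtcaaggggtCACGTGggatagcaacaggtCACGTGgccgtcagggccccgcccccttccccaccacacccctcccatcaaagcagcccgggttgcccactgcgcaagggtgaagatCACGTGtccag

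Over the whole 300-base windows, at any start of a gene and on both strands, an E2F word lay in 10 of the 34 promoters (29.4%), against 2.60% of the 27025 genes in the promoter table. A CHR word lay in 13 of 34 (38.2%), against 21.7% of all genes, a CCAAT box in 24 of 34 (70.6%), against 41.1%, and an E-box in 3 of 34 (8.82%), against 8.09%. By role, an E2F word lay in 6 of the 9 licensing and fork promoters and in 1 of the 12 mitotic promoters, and a CHR word in 3 of 9 and 9 of 12 of them. Among all 97 matches in these windows, 2 overlapped a match of another of the motifs. A match is a description of the letters and not evidence that a factor binds.

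In untreated Hepa1-6 cells the machinery of division was expressed at high levels, as read in TPM, transcript abundance corrected for gene length and library size. Ccnd1, the D-type cyclin that couples growth signals to Cdk4, was the highest of the 41 at 580.5 ± 21.7 TPM (SD, n = 2), above 98.4% of the gene symbols at or over 1 TPM. The decatenating enzyme Top2a followed at 526 ± 54.3 TPM, Cdk4 at 501 ± 29.2 TPM, the sliding clamp Pcna at 381 ± 25.3 TPM and Mcm7 at 378 ± 14.8 TPM. Ccnd1 stood above Top2a by close to the SD of Top2a, Top2a and Cdk4 differed by less than the SD of either, and so did Pcna and Mcm7. At the other end stood Ccnd3 at 34.3 ± 3.54 TPM, Cdk6 at 32.2 ± 6.12 TPM and the Cdk inhibitor Cdkn1b (p27) at 27.6 ± 1.03 TPM. The activating factor E2f2 was the lowest by a wide margin at 5.46 ± 0.283 TPM, below its paralog E2f1 at 60.4 ± 0.0128 TPM.

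**Figure D1:**
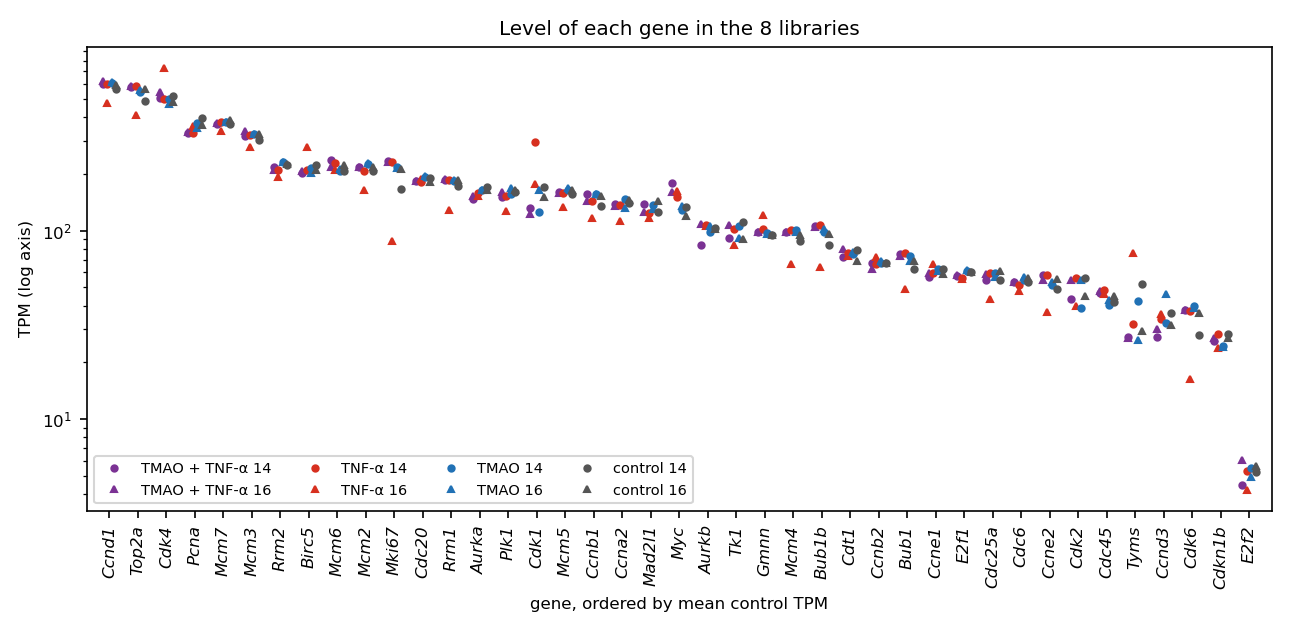
Level of each of the 41 genes per length (TPM, log axis) in each of the 8 libraries, ordered by the mean of the control, with the group shown by colour and library 14 as a circle, library 16 as a triangle. The control means run between 580.5 TPM for Ccnd1 and 5.46 TPM for E2f2, and TNF-α library 16 is the point that most often stands away from the rest, as for Mki67 and Cdk6.

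Together the 41 genes took an almost constant share of the reads. The share was 0.971% and 0.966% of all counts in the cells given both agents, 0.967% and 0.929% with TNF-α, 0.962% and 0.962% with TMAO, and 0.951% and 0.951% in the control, where each pair is library 14 and then library 16. The groups differ by less than the gap between the TNF-α libraries. Gene by gene the highest of the 8 libraries exceeded the lowest by a median of 1.30-fold in CPM (reads of a gene scaled by library size, the scale of all further levels and differences), with 1.06-fold for the steadiest gene and 2.11-fold for Mki67. Without TNF-α library 16 and control library 14, which stand apart as described further on, the same median was 1.10-fold and the widest gene was E2f2 at 1.30-fold.

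No gene of the list passed an adjusted p of 0.05 in any of the 8 comparisons fitted (edgeR's quasi-likelihood test, Benjamini-Hochberg adjustment over 15613 genes). The background beside those counts is uneven. TNF-α against control called 4.05% of all genes and the 2 agents against control 3.49%, the 2 agents against TMAO 3.64%, and TNF-α averaged over both TMAO settings 9.2%. TMAO against control, the 2 agents against TNF-α, TMAO averaged over both TNF-α settings and the interaction each called 0% of all genes. DESeq2 and limma-voom likewise called 0 of the 41 in each of these comparisons. DESeq2 called 6.15% of all genes in TNF-α against control, 5.76% in both agents against control, 5.82% in both agents against TMAO, 11.2% for TNF-α averaged, 0.0256% for TMAO against control and for TMAO averaged, and 0% in the other comparisons. Limma-voom called 3.83%, 3.29%, 3.52% and 9.18% in the first 4 of these and 0% in the rest. At an unadjusted p under 0.05 a single gene, Myc, was reached in TNF-α against control, where 15.2% of all genes were, and Myc again in the averaged TNF-α comparison, where 20.4% were. The unadjusted count was 0 of 41 in the other comparisons, where it took in 13.5% of all genes for both agents against control, 13.8% for both against TMAO, 3.52% for both against TNF-α, 2.9% for TMAO averaged, and 1.18% for TMAO against control and for the interaction.

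The treatment itself was visible in the same libraries. The 12 NF-κB target genes kept as a check took 0.280% and 0.290% of counts with both agents and 0.295% and 0.319% with TNF-α, against 0.103% and 0.104% with TMAO and 0.109% and 0.105% in the control. In TNF-α against control 11 of the 12 passed as higher, where 4.05% of all genes passed in either direction. The median log2 change of the 12 was 1.58. These genes were chosen with earlier results of these data known. Of the hepatocyte and fetal liver markers Alb had between 365 and 1199 TPM and Afp between 632 and 1561 TPM, while Ttr and Apoa1 stayed at or under 0.653 TPM. Of 7 tested genes of that list, Fgb, Alb, Afp, Hnf4a and Foxa2 fell in TNF-α averaged over TMAO (list median -0.65 on the log2 scale), where 9.2% of all genes passed in either direction. The part of these markers in the levels of the 41 genes was not tested. Of the fibroblast markers Dcn had between 1355 and 1906 TPM, Lum and Col3a1 were at 0 and Col1a2 at or under 0.0621 TPM, and none of the 3 tested passed in any comparison. Of the leukocyte markers Ptprc was at or under 0.110 TPM and Cd3e at 0, and Cd68 had between 12.7 and 18.3 TPM. The library totals ran between 24736746 and 30488605 counts, so a count of 0 would allow up to 0.121 CPM in the shallowest library, and every gene of the list stood far above it. That limit covers counting error only.

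Among the regulators of G1, none of 9 passed the test in any comparison, and Myc came closest. Myc, the growth-promoting transcription factor, had 263 and 268 CPM with both agents and 262 and 315 CPM with TNF-α, against 231 and 238 CPM with TMAO and 248 and 219 CPM in the control. All 4 libraries with TNF-α lay above all 4 without it. The averaged log2 difference was 0.24 ± 0.09 (SE; 95% interval 0.03 to 0.45), with an unadjusted p of 0.0324 and an adjusted p of 0.184 in edgeR's quasi-likelihood test. Over the alternatives tried its log2 difference ran between 0.17 and 0.33, always positive. Its highest adjusted p over the edgeR, DESeq2 and limma alternatives was 0.503. Myc passed this comparison only in fits that left 1 library in the TNF-α group. In TNF-α against control alone the log2 difference was 0.30 ± 0.13.

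Ccnd1 had 733 and 737 CPM with both agents and 723 and 542 CPM with TNF-α, against 738 and 755 CPM with TMAO and 699 and 708 CPM in the control. TNF-α library 16 was the low one and the other 7 libraries lay within a narrow band. The 4 libraries with TMAO all lay above the 4 without it, and Ccnd1 was the only gene of the 41 that separated that way, where 2.69% of all genes separated in either direction, 1.31% higher and 1.38% lower. Its log2 difference for TMAO averaged over both TNF-α settings was 0.15 ± 0.11 (adjusted p = 0.66 in edgeR).

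Ccnd3, a second D-type cyclin, had 77.9 and 83.1 CPM with both agents and 88.2 and 108 CPM with TNF-α, against 90.1 and 89.9 CPM with TMAO and 101 and 83.8 CPM in the control. Its log2 difference between both agents and TNF-α was -0.29 ± 0.14 (adjusted p = 0.569 in edgeR). Cdkn1b, which restrains Cdk2, had 58.6 and 61.5 CPM with both agents, 64.2 and 56.5 CPM with TNF-α, 58.4 and 57.7 CPM with TMAO, and 67.4 and 63.6 CPM in the control. Both TMAO libraries were below both controls, by a log2 difference of -0.17 ± 0.10, and this did not pass the test (adjusted p = 1 in edgeR). Cdk4, whose promoter holds 4 E-boxes, had 532 and 538 CPM with both agents, 563 and 853 CPM with TNF-α, 559 and 538 CPM with TMAO, and 617 and 533 CPM in the control. Its groups with and without TNF-α overlapped. E2f1 averaged 73.4 ± 0.758 CPM with both agents, 79.8 ± 13.0 CPM with TNF-α, 79.3 ± 1.15 CPM with TMAO and 79.2 ± 1.81 CPM in the control (SD, n = 2 each).

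**Figure D2:**
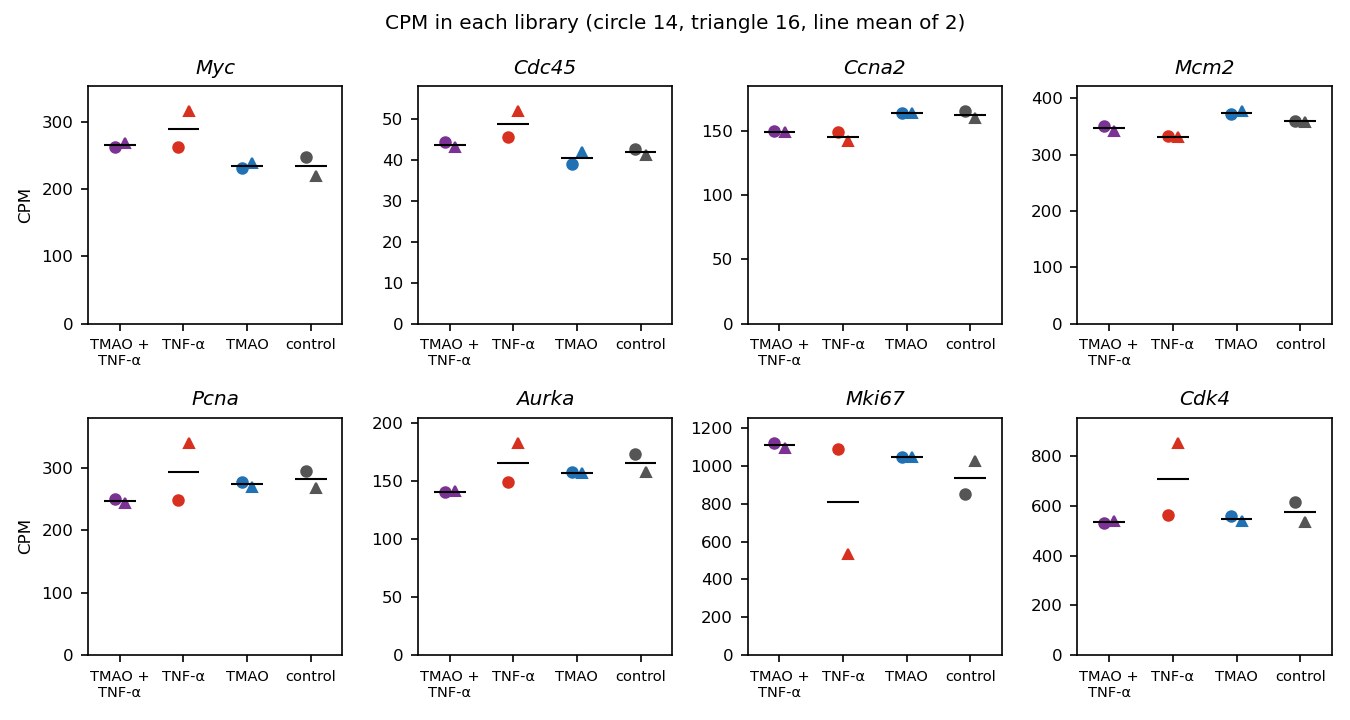
CPM in each library for Myc, Cdc45, Ccna2, Mcm2, Pcna, Aurka, Mki67 and Cdk4, by group, each axis starting at 0, with library 14 as a circle and library 16 as a triangle. Lines mark the mean of the 2 libraries. Myc lies between 262 and 315 CPM in the libraries with TNF-α and between 219 and 248 CPM in those without, and the single low Mki67 point at 532 CPM is TNF-α library 16.

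At the step that starts DNA synthesis, Ccna2 and the cyclin E genes did not pass the test in any comparison. Ccna2, cyclin A, had 149.8 and 149 CPM with both agents and 149 and 142 CPM with TNF-α, against 164 and 164 CPM with TMAO and 165 and 159.9 CPM in the control. The 4 libraries with TNF-α lay below the 4 without, and within each group the values were close. The averaged log2 difference was -0.15 ± 0.07 (95% interval -0.30 to 0.01, adjusted p = 0.273 in edgeR). Its highest adjusted p over the edgeR, DESeq2 and limma alternatives was 0.817. Ccna2 passed this comparison only in fits that left 1 library in the TNF-α group. Ccne1, cyclin E1, had 55.2 and 54.6 CPM with both agents, 55 and 76.9 CPM with TNF-α, 59.7 and 56.7 CPM with TMAO, and 63.2 and 54.6 CPM in the control, so that TNF-α library 16 alone was high. Cdk2, the kinase partner of both cyclins, averaged 98.1 ± 1.11 CPM with both agents, 102 ± 5.09 CPM with TNF-α, 99.1 ± 2.97 CPM with TMAO and 103 ± 4.37 CPM in the control.

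None of the 11 licensing and fork genes passed the test in any comparison. Cdc45, which activates the loaded helicase, had 44.2 and 43 CPM with both agents and 45.5 and 51.8 CPM with TNF-α, against 38.9 and 41.9 CPM with TMAO and 42.7 and 41.2 CPM in the control. Together with Myc it was 1 of 2 genes in the list that were higher in all 4 libraries with TNF-α, by a log2 difference of 0.16 ± 0.08 (adjusted p = 0.305 in edgeR). Mcm2 lay on the other side: 351 and 342 CPM with both agents and 333 and 330.4 CPM with TNF-α, against 371 and 377 CPM with TMAO and 359.5 and 358 CPM in the control. Its averaged log2 difference was -0.11 ± 0.07 (adjusted p = 0.478 in edgeR).

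The helicase subunits Mcm3 and Mcm6 had close means in the groups other than TNF-α. Mcm3 averaged 506 ± 4.92 CPM with both agents, 524 ± 44.3 CPM with TNF-α, 506 ± 3.49 CPM with TMAO and 503 ± 5.02 CPM in the control. Mcm6, whose promoter carries the E2F words shown above, averaged 399 ± 6.33 CPM with both agents, 426 ± 48.1 CPM with TNF-α, 399 ± 3.83 CPM with TMAO and 399 ± 7.06 CPM in the control. Gmnn, geminin, which blocks Cdt1 from relicensing origins, had 55.8 and 56.7 CPM with both agents, 57.9 and 89.2 CPM with TNF-α, 56.8 and 57.7 CPM with TMAO, and 58.6 and 56.9 CPM in the control. Only TNF-α library 16 was high, and the log2 difference between both agents and TNF-α, -0.39 ± 0.19, had an adjusted p of 0.569 in edgeR. Pcna had 249 and 244 CPM with both agents and 248 and 339.7 CPM with TNF-α, against 278 and 269 CPM with TMAO and 295 and 267 CPM in the control. Of the 4 libraries with TNF-α, 3 were lower than every library without it and the remaining one, library 16, was the highest of all 8.

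The 4 genes that supply deoxynucleotides likewise gave no call. Tk1, thymidine kinase, had 66 and 62.4 CPM with both agents, 64.4 and 81.5 CPM with TNF-α, 68.5 and 66.9 CPM with TMAO, and 74.6 and 66 CPM in the control. Tyms, thymidylate synthase, had 49 and 45.8 CPM with both agents, 44.1 and 61.4 CPM with TNF-α, 49.6 and 48.5 CPM with TMAO, and 54.1 and 53.1 CPM in the control. In CPM both genes were highest in TNF-α library 16, whereas Tk1 in TPM was lower there than in TNF-α library 14. The large subunit of ribonucleotide reductase, Rrm1, averaged 343 ± 7.55 CPM with both agents, 322 ± 28.2 CPM with TNF-α, 346 ± 2.85 CPM with TMAO and 344 ± 0.898 CPM in the control. The small subunit, Rrm2, averaged 212 ± 8.71 CPM with both agents, 228 ± 24.4 CPM with TNF-α, 234 ± 3.17 CPM with TMAO and 234 ± 11.8 CPM in the control.

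Of the 13 mitotic genes none passed the test, and the largest differences between group means came with a wide spread in the TNF-α group. Mki67 had 1121 and 1097 CPM with both agents and 1091 and 532 CPM with TNF-α, against 1045 and 1045 CPM with TMAO and 851 and 1024 CPM in the control. Apart from TNF-α library 16 and control library 14 the values lay between 1024 and 1121 CPM. The log2 difference of both agents against TNF-α was 0.45 ± 0.31 (adjusted p = 0.569 in edgeR). Birc5, survivin, had 112 and 118 CPM with both agents and 119 and 186 CPM with TNF-α, against 123 and 116 CPM with TMAO and 137 and 123 CPM in the control.

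Aurka, the kinase of the spindle poles, had 140.4 and 141 CPM with both agents and 149 and 183 CPM with TNF-α, against 158 and 157 CPM with TMAO and 173 and 158 CPM in the control. Its 2 libraries with both agents were the lowest of the 8, and the log2 difference from control was -0.24 ± 0.12 (95% interval -0.53 to 0.06, adjusted p = 0.528 in edgeR). Plk1, Polo-like kinase, averaged 131 ± 6.33 CPM with both agents, 131 ± 0.619 CPM with TNF-α, 143 ± 7.99 CPM with TMAO and 142 ± 5.94 CPM in the control, without overlap between the 4 libraries with TNF-α and the 4 without. The checkpoint kinase Bub1 averaged 117 ± 3.20 CPM with both agents, 111 ± 10.9 CPM with TNF-α, 112 ± 1.52 CPM with TMAO and 108 ± 3.98 CPM in the control. Cyclin B1, Ccnb1, averaged 224 ± 6.90 CPM with both agents, 216 ± 5.55 CPM with TNF-α, 235 ± 1.52 CPM with TMAO and 229 ± 4.52 CPM in the control.

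**Figure D3:**
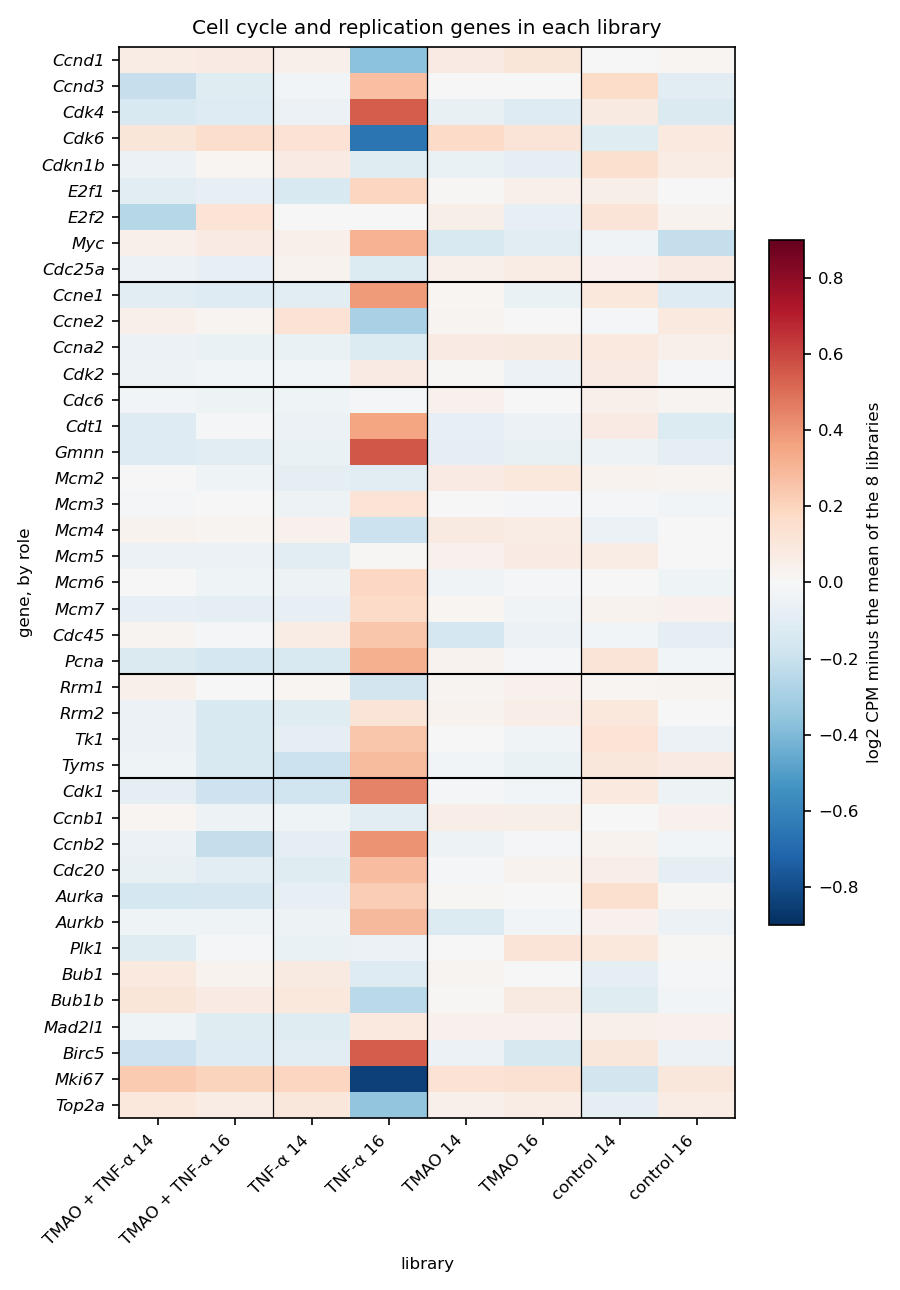
Deviation of each gene in each library from its mean over the 8 libraries (log2 CPM, colour), genes grouped by role and libraries by group. TNF-α library 16 is the column with the strongest colours, with Mki67 0.84 below its mean and Gmnn 0.56 above it.

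The size of change that these libraries leave room for can be read from the intervals. For TNF-α averaged over both TMAO settings the 95% interval of all 41 genes lay within 1.5-fold in either direction, as it did for 51.7% of all genes tested. The background shares here take in genes near the filter on low counts, where counting error widens intervals. Genes of like level were not compared. For TMAO averaged over both TNF-α settings it lay within 1.5-fold for 38 of 41, against 55.1% of all genes, and within 2-fold for all 41. The 3 genes outside 1.5-fold were Birc5, Mki67 and Cdk6, each of them also more than 1.5-fold apart between the TNF-α libraries. The interaction was the least precise: 25 of 41 lay within 1.5-fold and Gmnn, Cdk4 and Mki67 reached beyond 2-fold. The median log2 difference of the 41 genes was -0.04 for TNF-α averaged over TMAO, against 0.00 for all genes, and -0.06 for TMAO averaged over TNF-α, against -0.01. For both agents against control it was -0.08, against -0.00 for all genes, with 31 of the 41 values negative. Positive values made up 24.4% of the 41 there, against 49.4% of all genes. For both agents against TMAO the median was -0.05, against -0.02, with 32 negative. Positive values made up 22.0% of the 41 there, against 46.9% of all genes. These 2 comparisons share the libraries that received both agents. By role the medians for TNF-α averaged over TMAO ran between -0.05 for the G1 regulators and 0.00 for the mitotic genes.

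**Figure D4:**
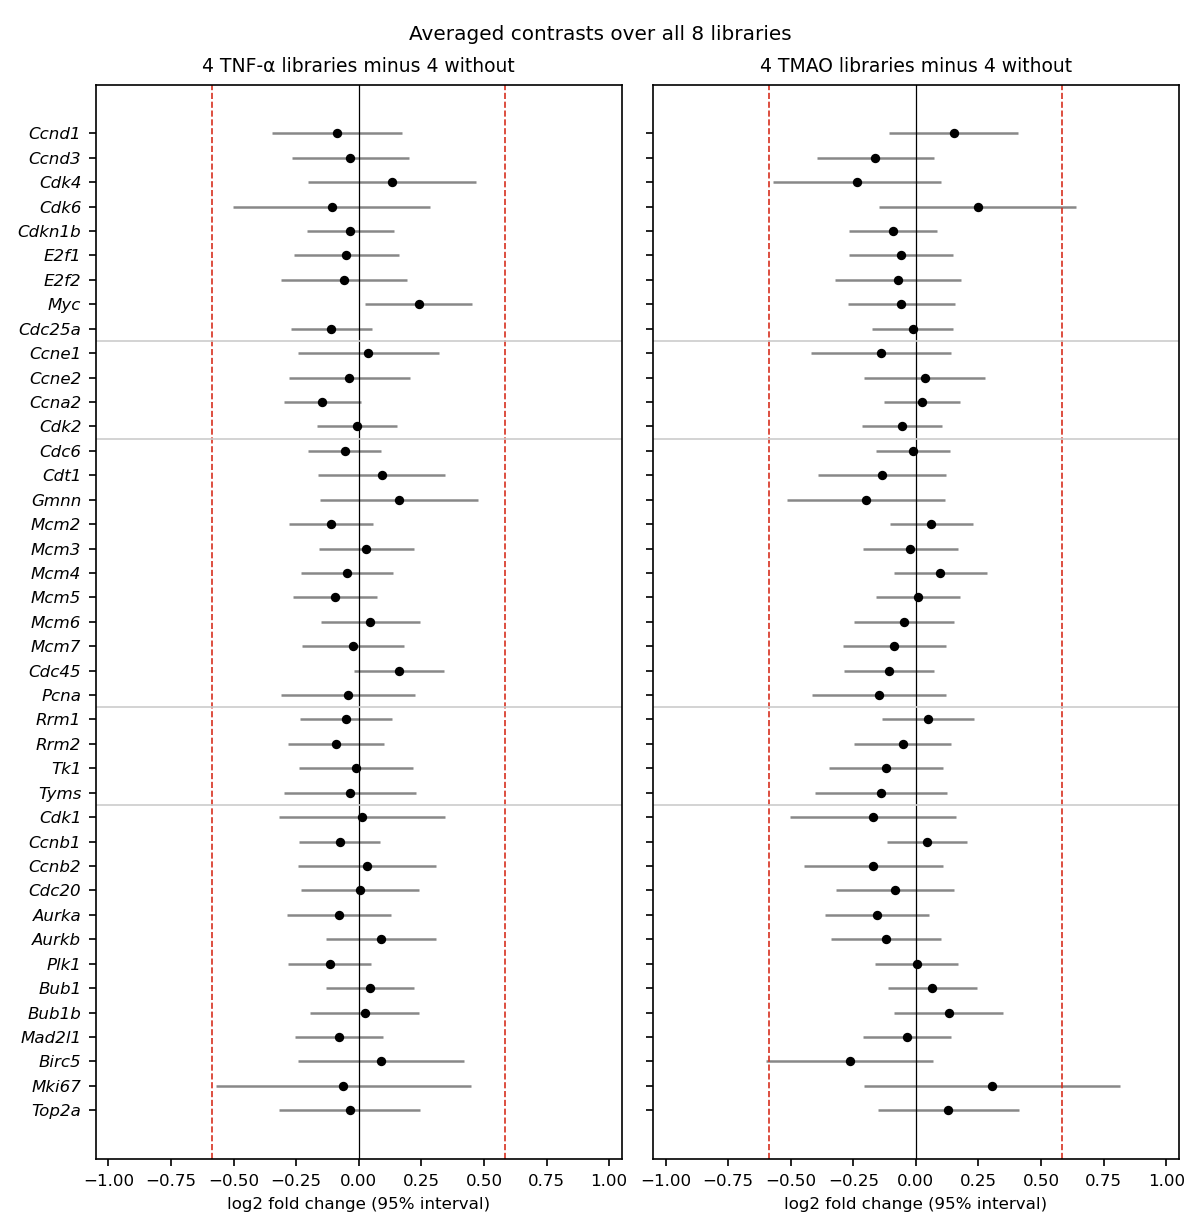
Log2 difference with 95% interval for each of the 41 genes, for TNF-α averaged over both TMAO settings and for TMAO averaged over both TNF-α settings, with lines at 1.5-fold either way. In the TNF-α comparison every interval lies between the lines, and the intervals of Birc5, Mki67 and Cdk6 cross them in the TMAO comparison.

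The share of genes whose libraries do not overlap was 73.2% of the 41 for both agents against TMAO and for both agents against control, above the background, and 31.7% or less in the other comparisons, under it. With 4 libraries against 4, Myc and Cdc45 were higher and Mcm2, Cdc6, Ccna2, Plk1 and Cdc25a lower in every TNF-α library, 7 of 41 where 20% of all genes separated in either direction, 9.81% higher and 10.2% lower. With both agents against TMAO, 7 genes were higher (17.1%) and 23 lower (56.1%) in both libraries, where 62.6% of all genes separated, 28.9% higher and 33.7% lower. With both agents against control, 9 were higher (22.0%) and 21 lower (51.2%), where 57.1% of all genes separated, 27.9% higher and 29.3% lower. TNF-α against control separated 2 higher and 8 lower, where 35.1% of all genes did, 17.6% higher and 17.5% lower. TMAO against control separated 8 higher and 5 lower, where 33.2% did, 17.2% higher and 15.9% lower. Both agents against TNF-α separated 3 higher and 6 lower, where 34.4% did, 17.1% higher and 17.3% lower. The 2 comparisons above the background share the libraries that received both agents, and none of these genes passed the test in them. The spread in that test was estimated over all 8 libraries, also those of the TNF-α group, which neither comparison uses. Calls in fits of only the compared libraries are given further on. With 2 libraries against 2 the smallest two-sided p that an exact permutation test allows is 0.333.

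The TNF-α libraries differed from each other more than any other pair. Between TNF-α libraries 16 and 14, 22 of the 41 genes were more than 1.2-fold apart, against 65.3% of all genes at or over 10 CPM, and 6 were more than 1.5-fold apart, against 30.3%. Between the libraries of the other groups, 1 of 41 was more than 1.2-fold apart with both agents, against 1.48% of all genes, 0 with TMAO, against 0.879%, and 2 (4.88%) in the control, against 12.6%, and none was 1.5-fold apart. A list of 30 ribosomal protein genes took 3.84% of counts in TNF-α library 16 and 2.65% in control library 14, and between 2.26% and 2.33% in the other 6 libraries. The difference went with gene length, taken as the bases covered by all annotated exons of a gene over all its transcripts (exon length). Over the 41 genes Spearman's rho between exon length and the log2 ratio of library 16 to library 14 was -0.52 in the TNF-α group and 0.48 in the control, where all genes gave -0.71 and 0.62 over 8987 genes, and -0.15 with both agents and -0.29 with TMAO, where all genes gave 0.02 and 0.00. The genes of each such value come from the same pair of libraries and are not independent.

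**Figure D5:**
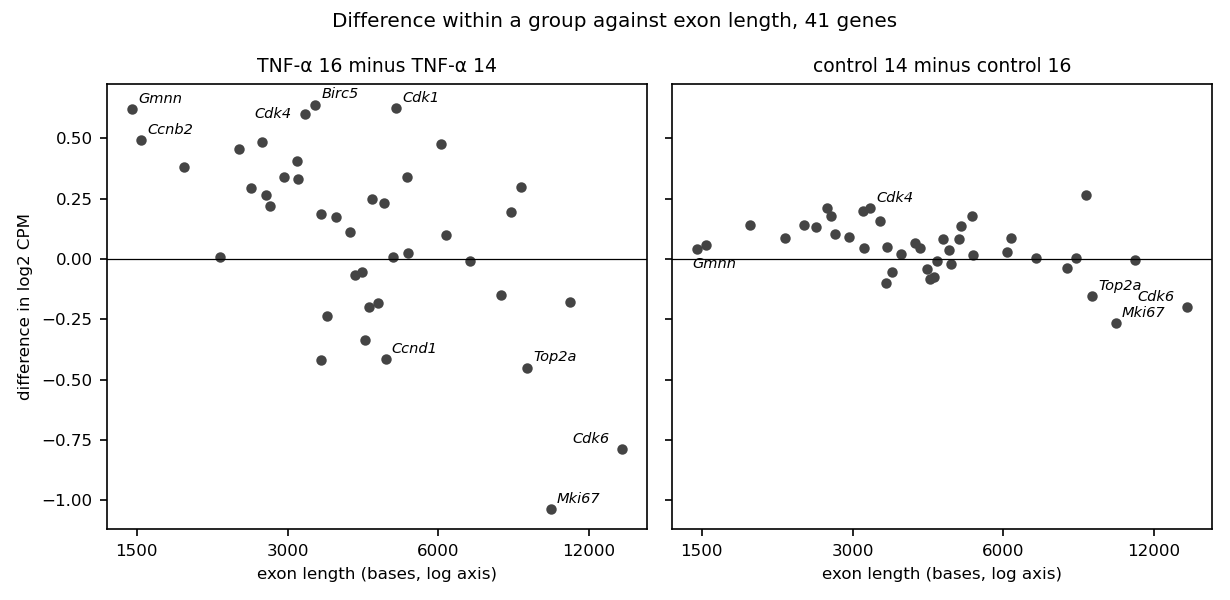
Exon length of each of the 41 genes (bases, log axis) against the difference in log2 CPM within a group, TNF-α library 16 minus library 14 on the left and control library 14 minus library 16 on the right. The 10 shortest genes all lie above 0 in both panels, and Mki67, at -1.04 in the left panel, lies lowest in both.

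Lining the list up by length shows the same. The 10 shortest, with between 1465 and 2946 exon bases (Gmnn, Ccnb2, Cdc20, Plk1, Pcna, Aurka, Ccne1, Myc, Rrm2 and Aurkb), were all higher in TNF-α library 16 than in library 14, by a median log2 ratio of 0.36, and all higher in control library 14 than in library 16. Of the 10 longest, with between 6089 and 13989 bases, 4 were higher in TNF-α library 16 (Tyms, Cdk2, Mad2l1 and Ccnd3). The median of the 10 was -0.08. Exon length adds up all transcripts of a gene and can exceed the length of any 1 of them, and transcript lengths were not compared. Myc is among the 10 shortest. In the averaged TNF-α comparison it was higher by 1.17-fold with TNF-α library 16 and control library 14 both left out, and by 1.18-fold with all 8 libraries. For Myc as for the other genes, the part of these libraries in the group means was not tested beyond the fits that leave them out.

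Calls appeared only in fits that lacked a TNF-α library. When TNF-α library 16 and control library 14 were both left out, 18 of 41 genes (43.9%) passed in the averaged TNF-α comparison, 5 higher (Bub1, Bub1b, Cdc45, Mki67 and Myc) and 13 lower, where 34% of all genes passed, 16.6% higher and 17.4% lower. These changes were small: the higher genes rose by between 1.06-fold and 1.17-fold and the lower genes fell to between 0.903 and 0.957 of their level without TNF-α. In this fit the TNF-α and control groups have 1 library each, which is assumed to vary like the other groups. The same fit called 7 of 41 in TNF-α against control, where 20.1% of all genes passed, 8 in both agents against control, where 22.8% did, and 13 in both agents against TMAO, where 29.7% did.

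When only the 4 libraries with both agents and with TMAO were fitted, 13 of 41 passed (31.7%), where 31.9% of all genes did, 15.9% higher and 16.1% lower. Myc and Mki67 were higher, and Aurka, Ccna2, Ccnd3, Cdc25a, Cdk1, Mad2l1, Mcm2, Mcm5, Pcna, Plk1 and Rrm2 lower, these 11 at between 0.904 and 0.937 of their level with TMAO. The called genes were the same in the fit without TNF-α library 16 and control library 14. There this comparison rests on the same 4 libraries, so the overlap adds no independent support. When only the libraries with both agents and the control were fitted, Aurka alone passed, at 0.852 of its control level, where 15.9% of all genes did. Without TNF-α library 16 alone, 10 of 41 passed in the averaged TNF-α comparison, Myc higher and 9 lower, where 25% of all genes did, with 1 gene (Tyms) in TNF-α against control, where 12.9% did, and 3 in both agents against control, where 18.4% did.

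Without TNF-α library 14, when library 16 stood for its group alone, more genes passed than with all 8 libraries in each comparison given here. Of the 41, 24 passed in TNF-α against control, where 48.9% of all genes did, 29 in both agents against TNF-α, where 49.4% did, 18 in TNF-α averaged, where 45.6% did, 25 in TMAO averaged, where 44.8% did, and 19 in the interaction, where 35.5% did. In the same fit 4 passed in both agents against control, where 18.2% did, and Myc alone in both agents against TMAO, where 16% did.

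Genes outside the list but in the same pathways were read from 5 further lists. None of 46 other origin and fork genes passed in any comparison, where TNF-α averaged called 9.2% of all genes and 4 of the 8 comparisons called none. Of 48 other spindle and chromosome genes, 1 (2.08%) passed in the averaged TNF-α comparison, where 9.2% of all genes did: Nuf2, a kinetochore protein, had 157 and 155 CPM with both agents and 155 and 179 CPM with TNF-α, against 127 and 127 CPM with TMAO and 124 and 131 CPM in the control, a rise of 0.34 ± 0.08 on the log2 scale (adjusted p = 0.0337 in edgeR). Of 24 other G1 and S phase regulators tested, 1 (4.17%) passed in the same comparison: E2f6, a repressive E2F, had 20.8 and 18.3 CPM with both agents and 19.9 and 20.5 CPM with TNF-α, against 24.1 and 24.7 CPM with TMAO and 25.6 and 24.9 CPM in the control, and fell by 0.32 on the log2 scale (adjusted p = 0.0466 in edgeR).

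Of 12 Cdk inhibitors and genes of cell cycle exit tested, 3 rose in the averaged TNF-α comparison and 0 fell (25%, against 9.2% of all genes), and 7 reached an unadjusted p under 0.05. The list as a whole did not lean upward: 6 of its 12 values were positive and 6 negative, with a median log2 difference of -0.09, against 0.00 for all genes, and its median was also negative in the other 7 comparisons. Gadd45b, a stress-induced NF-κB target, had 24.3 and 24.7 CPM with both agents and 24.4 and 38.3 CPM with TNF-α, against 13.6 and 12.5 CPM with TMAO and 13.9 and 12.8 CPM in the control, a log2 change of 1.07 ± 0.15 (adjusted p = 0.00535 in edgeR). It also rose in TNF-α against control, by 1.23 ± 0.21 on the log2 scale, where Mycl rose by 1.18. Ccng2, an atypical cyclin linked to cell cycle arrest, had 22.2 and 23.2 CPM with both agents and 24.5 and 25.7 CPM with TNF-α, against 15.1 and 13.7 CPM with TMAO and 20.1 and 17.5 CPM in the control, a log2 change of 0.54 ± 0.08 (adjusted p = 0.00859 in edgeR). The antiproliferative gene Btg1 had 139 and 142 CPM with both agents and 149 and 197 CPM with TNF-α, against 111 and 107 CPM with TMAO and 125 and 114 CPM in the control, a log2 change of 0.45 ± 0.10 (adjusted p = 0.0384 in edgeR). In all 3 genes the 4 libraries with TNF-α lay above the 4 without.

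Among the called genes of these lists in the averaged TNF-α comparison Mycl, which encodes L-Myc, a paralog of Myc, had the widest shift. It had 28 and 32.4 CPM with both agents and 32.1 and 30.4 CPM with TNF-α, against 10.9 and 11.6 CPM with TMAO and 14.2 and 13.3 CPM in the control. The groups with and without TNF-α were well apart, and the averaged log2 change was 1.30 ± 0.09 (adjusted p = 0.000247 in edgeR), with a rise also in TNF-α against control (1.18 ± 0.12), both agents against control (1.13 ± 0.12) and both agents against TMAO (1.42 ± 0.12). Mycn, the N-Myc paralog, fell by 0.96 on the log2 scale (adjusted p = 0.0174 in edgeR), with 2.48 and 1.99 CPM with both agents and 1.75 and 2.61 CPM with TNF-α, against 4.2 and 4.04 CPM with TMAO and 4.93 and 3.93 CPM in the control. Of the Max-binding partners that oppose Myc, Mxd1 rose by 0.58 ± 0.10 (adjusted p = 0.0126) and Mxd4 fell by 0.61 (adjusted p = 0.0169) in the same comparison, and Mxi1, named after its values were seen, rose by 0.52 ± 0.10 (adjusted p = 0.0233). In all, 5 of the 10 Myc partners and antagonists passed it, 3 higher and 2 lower, where 9.2% of all genes passed.

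Some levels rest on reads that the counting may not have kept apart. Exons of 13 of the 41 genes overlap an exon of another gene in GENCODE M21. The sources used here do not give the annotation or the strand setting of the counting. For Ccnd1 the overlap with LTO1 on the opposite strand is 818 bases, for Cdk4 with Tspan31 641 bases, and for Ccna2 with Exosc9 428 bases.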

How the data were processed

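Polyadenylated RNA from 8 Hepa1-6 libraries (4 groups of 2, grouped by title) was sequenced as paired reads of 150 bases, per the labels' protocols. The authors deposited whole-number counts per Ensembl gene for each library, per the file headers, and separately TPM values per gene symbol. The build is mm9, per the submitters' processing notes. The sources used here do not give the aligner, the annotation or the strand setting. Exon lengths and exon overlaps were taken from GENCODE M21, an annotation of GRCm38. The gene IDs of the counts match that annotation, and how this goes with the build named was not resolved.

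Counts were tested with edgeR 4.0.16 in R 4.3.3: filterByExpr kept 15613 of 54446 genes, libraries were scaled by TMM, and robust quasi-likelihood fits of the 4 group means (4 residual degrees of freedom) gave 8 contrasts, with Benjamini-Hochberg adjustment over all genes tested and a threshold of 0.05. "Averaged" contrasts take TNF-α or TMAO with and without the other agent. TPM served for levels between genes. From the TPM table, 191 rows with a repeated symbol and 27 with a symbol turned into a date were left out. Alternatives were DESeq2 1.42.0, limma 3.58.1 (voom, and log2 TPM with pseudocounts of 1 and 0.1), other scalings and filters, the replicate number as a block, only the compared libraries, and leaving out libraries. The fit was also run on simulated counts. They held no library that stood apart and no tie to gene length, so that run cannot show how the fit handles either. Intervals and floors cover counting error or the spread between libraries as stated.

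The 41 genes and all lists were chosen with earlier results of these data known. Library values are printed for the 2 genes of smallest p in each role, for Mki67, Pcna, Ccnd1, Myc and Cdkn1b, and, from each further list, for at most 4 called genes of smallest p. Cdk4 and Mcm2 were added after their values were seen.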

Additional observations from a re-analysis of the deposited data

How the results depend on the processing

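No gene of the list was called in any comparison under DESeq2, limma-voom, other scalings, other filters, the replicate block, TPM, or without any library of the control, TMAO or combined group. Counts of calls other than 0 were 13 (both agents against TMAO) and 1 (both against control) with only the compared libraries, and, without TNF-α library 16 and control library 14 together, 18 (TNF-α averaged), 13 (both against TMAO), 8 (both against control) and 7 (TNF-α against control). Leaving out 1 library at a time gave between 0 and 24 calls for TNF-α against control, 0 and 4 for both against control, 0 and 29 for both against TNF-α, 0 and 1 for both against TMAO, 0 and 18 for TNF-α averaged, 0 and 25 for TMAO averaged, 0 and 19 for the interaction, and 0 and 0 for TMAO against control. Each upper end over 0 is the fit without TNF-α library 14, in which library 16 stands for the group alone. Without library 16 the counts were 10 for TNF-α averaged, 3 for both against control and 1 for TNF-α against control.

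The median log2 difference of the 41 genes ran, over the same leave-one-out fits, between -0.0359 and 0.0149 for TMAO against control, -0.0617 and 0.0548 for TNF-α against control, -0.0930 and -0.0380 for both against control, -0.139 and -0.00234 for both against TNF-α, -0.0534 and -0.0217 for both against TMAO, -0.0641 and -0.00524 for TNF-α averaged, -0.0742 and 0.00147 for TMAO averaged, and -0.129 and 0.00505 for the interaction. Medians on the TPM scale were -0.103 for TNF-α against control, -0.0144 and -0.0143 for both against control, 0.0897 and 0.0889 for both against TNF-α, 0.0376 and 0.0371 for TMAO averaged, and 0.0809 and 0.0806 for the interaction, with pseudocounts of 0.1 and 1. Without both libraries the medians were 0.0131 for TMAO averaged and 0.000586 for both against TNF-α. The cause was not tested.

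Values of single genes that changed sign and were called were Bub1b in TNF-α against control without TNF-α library 14 (-0.186, with 0.161 the highest of its leave-one-out values), Cdk1 in TNF-α averaged without TNF-α library 16 (-0.161, with 0.156 the highest), and, without both libraries, Cdk1 (-0.124), Mcm7 (-0.106) and Mki67 (0.0962) in TNF-α against control and Cdk1 (-0.114) and Mki67 (0.0982) in TNF-α averaged. Of 6437 alternative values 187 gained a call in the same direction and 0 lost one. In 735 the sign was opposite to that of the fit reported, in 728 of them with no call in either fit (267 of the 984 TPM values), where the reported log2 differences were small (median size 0.03 over all 735).

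With the replicate block, 342 genes of all were called in TNF-α against control, 301 in both against control, 323 in both against TMAO and 1011 in TNF-α averaged, with 0 of the 41. Differences of library 16 minus library 14 correlated over genes by between -0.834 (TNF-α and control) and 0.183 (both agents and TMAO) over pairs of groups. The lowest value comes from the pair that holds the 2 libraries standing apart with gene length. These values therefore cannot show whether the numbers 14 and 16 pair the samples.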

Other observations

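The TPM values of Cdk1 and Tyms departed most from their counts. Cdk1 had 294 TPM in TNF-α library 14 and between 123 and 178 TPM in the other 7 libraries, while its counts were highest in TNF-α library 16 at 388 CPM, against 251 CPM in library 14. Tyms had 76.2 TPM in TNF-α library 16 and between 26.3 and 51.8 TPM elsewhere. Other genes departed too. In the TNF-α group the log2 ratio of library 16 to library 14 was -0.28 in TPM and 0.34 in CPM for Tk1. For Cdk2 it was -0.49 in TPM and 0.10 in CPM. Most other genes had a lower ratio in TPM than in CPM there, and some, such as Mcm7 and Mcm3, changed sign. The levels of these genes per length therefore depend on the table used, and what made the tables differ was not tested.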
